A study of Mus musculus with 8 samples.

Results

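The genes examined here were those of the collagen chains, the laminin chains and 4 proteins that bind them, measured in sorted tumour endothelial cells (ECs). They were taken by name, as every row of the expression tables called Col, a number, a and a number, or Lama, Lamb or Lamc and 1 digit, together with Nid1, Nid2, Hspg2 and Sparc. This gave 59 of the 20408 genes listed in any library, of which 55 were listed in every library. Single cell RNA sequencing was made of CD31+ cells sorted from mammary tumours of adult mice, 3 h after PBS or cGAMP had been injected into the tumour. cGAMP is a cyclic dinucleotide that switches on the innate immune adaptor STING. The spontaneous tumours were those of MMTV-PyMT mice, whose transgene drives the polyoma middle T antigen from a mammary tumour virus promoter, and the implanted tumours came from cultured MMTV-PyMT tumour cells placed with Matrigel in the mammary fat pad. The 8 libraries fell into 4 groups of 2, 1 for each treatment of each tumour model, so every group carried tumours of the same oncogene. The labels name C57BL/6 as the strain and the methods name FVB. The methods give 2 mice per group, and which mouse made which library was not given in the sources used here, so p-values measure the spread between libraries.

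Values were read in the cells with at least 1 UMI of Pecam1 and none of Pdgfrb, which were 6847 of 8204 cells and 572 to 1470 per library. Their median depth was 2906 UMIs per cell in implanted cGAMP replicate 1, where 39.2% of cells held under 2000 UMIs, and 9504 to 13947 UMIs in the other libraries. All 8 endothelial markers on a fixed list, such as Cdh5 and Cldn5, were above 1 CPM in every library. Summed fibroblast markers came to 10.7 to 18.1 CPM in 3 groups and to 46.8 and 59.1 CPM in implanted cGAMP, and summed immune markers to 10.7 to 42.1 CPM against 63.6 and 235 CPM. Summed epithelial tumour markers came to 396 to 551 CPM in the spontaneous groups, 184 to 225 CPM in implanted PBS and 93.1 and 789 CPM in implanted cGAMP, and summed mural markers to 185 to 346 CPM. Their part in the results below was not tested. Libraries shared 7 of 8197 distinct barcodes.

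Vessels rest on a basement membrane, a thin sheet of 2 interlinked networks. One is built of type IV collagen, whose chains wind into triple helices, and the other of laminins, each a trimer of an alpha, a beta and a gamma chain that cells bind through integrins. Nidogens (Nid1 and Nid2) and perlecan (Hspg2) link the networks, the type XV and XVIII collagens sit at the outer face of the sheet, and Sparc is a secreted protein that binds collagen. In tumour vessels ECs and pericytes both lay down this sheet, and sprouting ECs remodel it, whereas the fibrillar collagens such as types I and III are mainly products of fibroblasts.

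Col4a1 and Col4a2, the chains of the common type IV trimer, lie head to head on chromosome 8 and are read in opposite directions. In GENCODE vM21 on GRCm38, Col4a1 spans 11198423 to 11312826 on the minus strand and Col4a2 spans 11312805 to 11449287 on the plus strand. The RefSeq starts in GRCm38.p6 are 21 bases apart, and the 22 bases at chr8:11312805-11312826 belong to the start of both genes. They are shown on the plus strand because the levels of these chains are set side by side throughout, with the GC box (GGGCGG) in capitals.
Col4a1 and Col4a2 shared start: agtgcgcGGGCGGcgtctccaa

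For 43 of the 59 genes RefSeq gave a promoter window, here taken as the 250 bases before the start. Windows were searched on both strands for the GC box (GGGCGG or CCGCCC), the CCAAT box (CCAAT or ATTGG) and the TATA box (TATAAA or TTTATA), none of which contains another. At least 1 window held a GC box for 25 of the 43 genes (58.1%), a CCAAT box for 15 (34.9%) and a TATA box for 5 (11.6%), against 35.4%, 37.5% and 14.3% of all 27025 genes with a window. The windows of 3 genes are shown because the results below turn on these genes, Col8a1 with its arterial level, Col23a1 with its lymphatic level and Col13a1 with its unequal cGAMP responses. They are given 5′ to 3′ on the strand of the gene, ending 1 base before the start, with matches in capitals.
Col8a1, chr16:57754738-57754987, minus strand: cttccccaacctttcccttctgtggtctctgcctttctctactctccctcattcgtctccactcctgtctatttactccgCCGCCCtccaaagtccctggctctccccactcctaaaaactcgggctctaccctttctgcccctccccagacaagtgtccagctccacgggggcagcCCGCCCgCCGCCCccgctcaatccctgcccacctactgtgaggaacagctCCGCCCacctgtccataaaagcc
Col23a1, chr11:51289670-51289919, plus strand: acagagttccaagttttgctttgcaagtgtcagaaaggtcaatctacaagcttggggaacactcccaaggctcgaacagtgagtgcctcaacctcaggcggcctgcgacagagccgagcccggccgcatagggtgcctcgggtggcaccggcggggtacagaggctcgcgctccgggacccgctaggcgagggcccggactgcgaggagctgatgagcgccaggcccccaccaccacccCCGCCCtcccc
Col13a1, chr10:61979109-61979358, minus strand: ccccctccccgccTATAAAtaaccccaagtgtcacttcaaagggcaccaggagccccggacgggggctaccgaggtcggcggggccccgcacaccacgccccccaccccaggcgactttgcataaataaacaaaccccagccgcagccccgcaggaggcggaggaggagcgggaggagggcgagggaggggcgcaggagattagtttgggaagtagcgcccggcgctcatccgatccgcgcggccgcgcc
The Col8a1 window held 4 GC boxes, the Col23a1 window 1 GC box, and the Col13a1 window 1 TATA box.

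Levels are given in CPM, the share of a cell's UMIs scaled to a common total, averaged over the gated cells of each library and read from the 3′ end of transcripts. Of the 59 genes, 24 reached 5 CPM in at least 2 libraries and were tested, 35 did not, and Col19a1 and Col22a1 had 0 UMIs in these cells. A low filter favours genes that are high in 1 group, so counts below refer to the 24 genes and not to all 59. Just inside the filter were Col27a1 and Col1a2, whose second highest library held 5.44 and 6.86 CPM, and among those just outside were Col5a2 and Col6a1 with 4.6 and 4.59 CPM. The tested genes were 2 of 6 type IV chains, 3 of 4 vessel-associated chains (types VIII, XV and XVIII), 1 of 6 type VI chains, 4 of 11 fibrillar chains, 4 of 17 other collagens, 6 of 11 laminin chains and all 4 linkers. Untested laminin chains included Lama1 and Lama2, whose level stayed under 1 CPM in all libraries. The summed level of the 59 genes was 14677 and 15991 CPM in spontaneous PBS, 12335 and 12654 CPM in spontaneous cGAMP, 13180 and 12605 CPM in implanted PBS, and 8899 and 9241 CPM in implanted cGAMP.

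**Figure D1:**
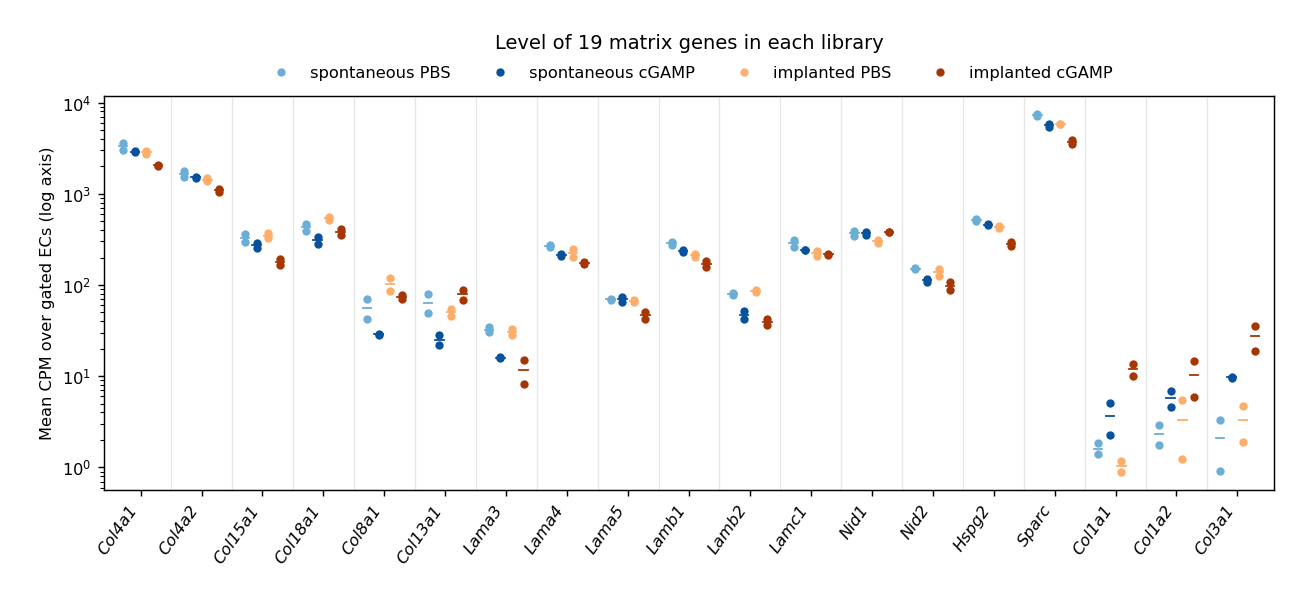
Level of 19 genes in each of the 8 libraries, as mean CPM over gated ECs on a log axis. Points are libraries, coloured by group, and short lines are means of 2 libraries. Sparc stood at 7183 and 7562 CPM in spontaneous PBS and at 3509 and 3842 CPM in implanted cGAMP, and Col3a1 at 3.29 and 0.91 CPM against 35.9 and 18.9 CPM.

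Which vessel types carried these transcripts was asked by placing each cell in the class whose markers it held most of, with 6 markers per class and no collagen or laminin gene among them. This placed 1106 arterial, 539 tip, 1863 venous, 1369 AQP7+ capillary, 289 lymphatic and 189 proliferative cells, and 1492 cells stayed unplaced. Each class was compared with the mean of the others with the library as a block, in limma over 12402 genes, of which 39 were members. Lymphatic cells reached 20 in 5 libraries and proliferative cells in 3, and the other classes in all 8. Median depths ran from 2308 to 19004 UMIs per cell over the class columns. Every class carried all 6 of its own markers, but cells were placed by these markers, so this cannot test the classes. Near the placement cut lay 804 of 1369 AQP7+ capillary, 270 of 539 tip, 345 of 1106 arterial and 523 of 1863 venous cells. So did 88 of 289 lymphatic and 71 of 189 proliferative cells. Summed AQP7+ capillary markers came to 1184 to 3602 CPM in the tip class and to 3098 to 4357 CPM in the AQP7+ capillary class. Because the lymphatic class stood far below the others for many members, differences were also computed with that class left out of the contrast, a comparison chosen after the data were seen.

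The tip class, the leading cells of sprouts, carried higher levels of both common type IV chains, of Lama4, Lamb1 and Lamc1 and of the 4 linkers than the mean of the other classes. In it 13 of 39 members were higher and 7 lower, against 9.95% and 20% of all genes. Nid2, a nidogen, ranged over libraries from 192 to 428 CPM with a median of 288 CPM, and was higher by 1.88 ± 0.18 (log2 difference ± SE, adjusted p = 1.6e-10). Lamb1, Lama4 and Lamc1, chains of laminin-411, were higher by 1.19 ± 0.11, 1.17 ± 0.12 and 0.88 ± 0.10. The tip class was the highest class in 8 of 8 libraries for each of these 4 genes. Col4a1 ranged from 2932 to 5077 CPM in tip cells and Col4a2 from 1690 to 2636 CPM, higher by 0.99 ± 0.12 and 1.03 ± 0.11, and both were highest there in 7 of 8 libraries. Hspg2 (0.64 ± 0.12), Nid1 (0.49 ± 0.10) and Sparc (0.90 ± 0.15) were also higher. With the lymphatic class left out these values were 1.60 for Nid2, 1.21 for Lamb1, 1.38 for Lama4, 0.97 for Lamc1, 0.67 for Col4a1, 0.70 for Col4a2, 0.35 for Hspg2, 0.57 for Nid1 and 0.26 for Sparc, all still called. Col15a1 (0.89 ± 0.23) and Col13a1 (1.32 ± 0.33) lost their calls there, with adjusted p = 0.441 and 0.159. Col28a1 was higher by 1.48 ± 0.32 and Col27a1 by 1.13 ± 0.35, both at low levels. Lamb2 was lower by −1.09 ± 0.17 and Col8a1 by −2.77 ± 0.41, with a median of 2.38 CPM in tip cells, and by −1.04 and −3.26 without the lymphatic class. In that contrast Lama3 (−1.02), Lama5 (−0.47) and Col18a1 (−0.40) were lower in tip cells too.

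The arterial class carried another set of chains. In it 7 of 39 members were higher and 8 lower, not far from the shares of all genes (15.6% and 14.8%). Col8a1, a short-chain network collagen, ranged from 181 to 431 CPM in arterial cells against medians of 2.38 to 19.3 CPM in the other classes, a difference of 5.13 ± 0.41 (adjusted p = 6.9e-13). Lama3, the alpha chain of laminin-332, ranged from 35.4 to 117 CPM and differed by 3.57 ± 0.30. Lamb2 (1.84 ± 0.17, 80.6 to 219 CPM), Col18a1 (1.53 ± 0.10, 614 to 1161 CPM) and Lama5 (1.31 ± 0.13, 80.3 to 124 CPM), which encode the beta2 chain, the precursor of endostatin and the alpha5 chain, were highest in the arterial class in 8 of 8 libraries. Lamb1 was lower by −1.25 ± 0.11 and lowest there in 8 of 8 libraries, and Lama4 was lower by −1.24 ± 0.12. Lamc1 (−0.71 ± 0.10), Nid1 (−0.61 ± 0.10) and Col15a1 (−0.92 ± 0.23) were lower too. Tip and arterial cells therefore differed in sign for Lama4 and Lamb1 on one side and Lamb2 and Col8a1 on the other, with each sign called. Sparc was higher by 0.45 ± 0.15 in arterial cells, but with the lymphatic class left out it turned to −0.21 (adjusted p = 0.0238), and without implanted PBS replicate 1 or 2 the adjusted p of the first value was 0.0574 or 0.063. In that contrast Col4a1, Col4a2 and Hspg2 were lower in arterial cells by −0.61, −0.49 and −0.50, and Col15a1 and Nid2 by −1.74 and −0.86. Col8a1 (4.98), Lama3 (3.11), Lamb2 (2.01), Col18a1 (1.37), Lama5 (0.91), Lamb1 (−1.34), Lama4 (−1.13), Lamc1 (−0.69) and Nid1 (−0.59) kept their calls.

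**Figure D2:**
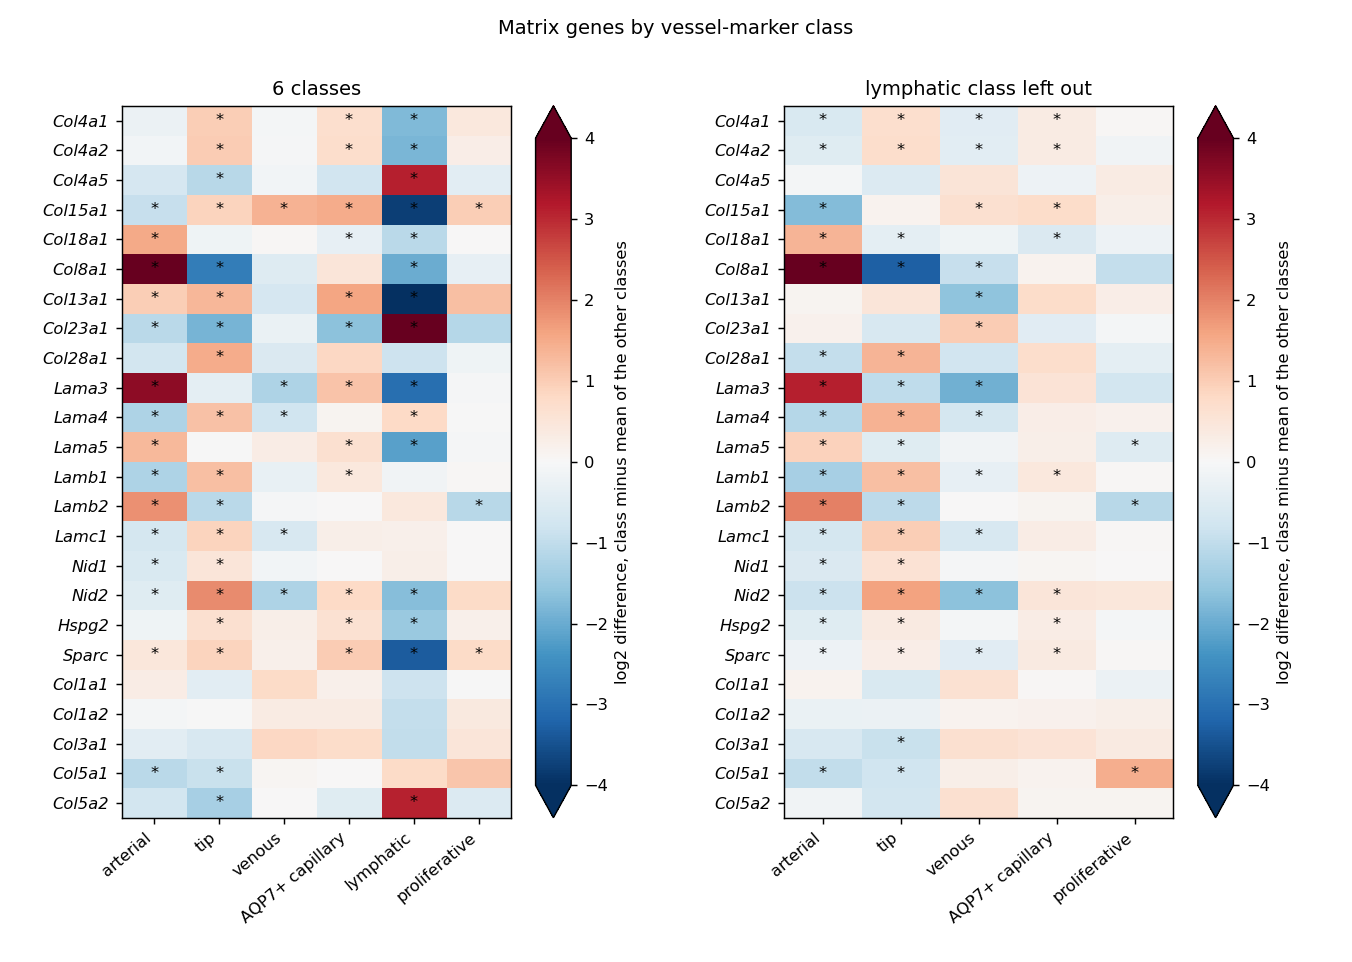
log2 difference of 24 genes between each vessel-marker class and the mean of the other classes, with all 6 classes (left) and with the lymphatic class left out (right). Asterisks mark an adjusted p under 0.05, and colours are capped at 4. Col8a1 and Lama3 stand out in the arterial column at 5.13 and 3.57, Nid2 in the tip column at 1.88, and Col23a1 in the lymphatic column at 5.97.

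In the AQP7+ capillary class 11 of 39 members were higher and 3 lower, against 6.18% and 4.99% of all genes. Col15a1, found on capillary basement membranes, ranged from 212 to 524 CPM and was higher by 1.47 ± 0.23. Sparc was higher by 1.0 ± 0.15, Col4a1 by 0.67 ± 0.12, Col4a2 by 0.69 ± 0.11, Hspg2 by 0.60 ± 0.12 and Nid2 by 0.80 ± 0.18. With the lymphatic class left out they came to 0.74, 0.36, 0.34, 0.34, 0.31 and 0.47 in that order, all called. Lamb1 was also higher and kept its call in every alternative, at 0.42 without the lymphatic class (adjusted p = 0.00261). Col13a1, a membrane-spanning collagen, was higher by 1.58 ± 0.33, and by 0.74 without the lymphatic class (adjusted p = 0.0578). Lama3 (1.13 ± 0.30) and Lama5 (0.65 ± 0.13) likewise lost their calls, with adjusted p = 0.148 and 0.206. Lama3 also missed the threshold without spontaneous PBS replicate 1 (0.0544). Col18a1 was lower by −0.34 ± 0.10 (adjusted p = 0.0145, and 0.0703 without implanted cGAMP replicate 2), and by −0.58 without the lymphatic class.

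In the venous class 2 of 39 members were higher and 4 lower, against 8.39% and 5.88% of all genes. Col15a1 ranged from 263 to 477 CPM and was higher by 1.38 ± 0.23. Nid2 ranged from 30.2 to 68.9 CPM and was lower by −1.24 ± 0.18, and Lama3 (−1.25 ± 0.30), Lama4 (−0.81 ± 0.12) and Lamc1 (−0.65 ± 0.10) were lower. Without the lymphatic class Col15a1 was higher by 0.64, and Nid2 (−1.65), Lama3 (−1.91), Lama4 (−0.69) and Lamc1 (−0.63) were lower. Col13a1 (−1.60), Col8a1 (−0.92), Sparc (−0.45), Col4a1 (−0.44), Col4a2 (−0.42) and Lamb1 (−0.34) were also lower there, and Col23a1 was higher by 1.0. In the proliferative class, with 3 libraries, 2 of 39 members were higher and 1 lower, against 10.8% and 12.3% of all genes. Lamb2 was lower there by −1.10 ± 0.27. Sparc (0.78 ± 0.24) and Col15a1 (0.97 ± 0.36) were higher, at 0.04 and 0.23 without the lymphatic class. Each of the 3 calls was lost without implanted PBS replicate 2, with adjusted p = 0.0695, 0.0685 and 0.13, and those of Sparc and Col15a1 also without spontaneous PBS replicate 1 (0.0805 and 0.362) or implanted PBS replicate 1 (0.095 and 0.0736). That of Col15a1 was lost without either spontaneous cGAMP library as well (0.0623 and 0.0594).

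In the lymphatic class 8 of 39 members were higher, which is near the share of all genes (18.9%). Lower were 11 of 39, against 15.2% of all genes. Sparc ranged from 256 to 1161 CPM in lymphatic cells and was lower by −3.33 ± 0.19. Col4a1 (641 to 1246 CPM, −1.76 ± 0.15), Col4a2 (305 to 558 CPM, −1.82 ± 0.14), Hspg2 (−1.50 ± 0.15) and Lama5 (−2.18 ± 0.17) were lowest there in 5 of 5 libraries. Col15a1 was lower by −3.78 ± 0.28 and Col13a1 by −4.43 ± 0.41. Col23a1, another membrane-spanning collagen, ranged from 46.3 to 192 CPM in lymphatic cells against medians of 0 to 1.74 CPM in the other classes, a difference of 5.97 ± 0.44. Col4a5 (3.1 ± 0.43), a minor type IV chain, was highest there in 5 of 5 libraries, with a median of 20.2 CPM. Lama4 was higher by 0.79 ± 0.15. The fibrillar chain Col5a2 was higher by 3.08 ± 0.43 at 6.95 to 60 CPM. Summed fibroblast markers came to 23.3 to 385 CPM in the lymphatic columns, with a median of 162 CPM, against medians of 2.2 to 14.2 CPM in the other classes, and their part in these differences was not tested.

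The effect of cGAMP in implanted tumours was asked by setting its 2 treated libraries against the 2 that received PBS, in limma over 10347 genes. Of the 24 genes tested, 12 were lower and 4 higher, against 16.4% and 8.4% of all genes. Among the 4 higher were Col1a1 and Col3a1, which passed the filter only through cGAMP libraries, where they were high. The median difference of the 24 genes was −0.38 on the log2 scale and that of all genes −0.11. Scaling by median of ratios, which sets the median of all genes near 0, gave 10 lower and 5 higher. Without the shallow implanted cGAMP replicate 1, 17 members were called, and 18 when cells under 2000 UMIs were left out. Without implanted PBS replicate 1 or 2 they were 12 and 11, and without implanted cGAMP replicate 2 they were 13.

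The makeup of the gated cells moved with treatment in these tumours. Lymphatic cells, in which Sparc, Col4a1, Col4a2, Col15a1 and Hspg2 stood low, made up 2.14% and 1.65% of the cells after PBS and 9.18% and 6.96% after cGAMP. Proliferative cells made up 5.7% and 7.52% against 0.476% and 0.174%. With the arterial, tip, venous and AQP7+ capillary classes weighted equally and no other cells counted, 16 members were called, and the differences were −0.62 for Sparc, −0.51 for Col4a1, −0.42 for Col4a2, −1.09 for Col15a1 and −0.67 for Hspg2.

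The type IV chains fell together in implanted tumours. Col4a1 stood at 2978 and 2695 CPM after PBS and at 2009 and 2075 CPM after cGAMP, and Col4a2 at 1492 and 1363 CPM against 1053 and 1126 CPM. The log2 differences were −0.47 ± 0.09 (adjusted p = 0.00374) and −0.39 ± 0.09 (adjusted p = 0.00948), so Col4a1 fell by 27.9% and Col4a2 fell by 23.6%. Without implanted PBS replicate 1 the adjusted p for Col4a2 was 0.0727. The ratio of Col4a1 to Col4a2 UMI levels, 1.98 to 2 after PBS in implanted tumours and 1.84 to 1.91 after cGAMP, stayed between 1.84 and 2.04 in all 8 libraries.

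Col15a1 had 368 and 329 CPM after PBS and 191 and 167 CPM after cGAMP in implanted tumours. It fell by 48.5%, a log2 difference of −0.96 ± 0.11 (adjusted p = 0.000293). Col18a1 went from 516 and 561 CPM to 406 and 352 CPM, a difference of −0.51 ± 0.12 (adjusted p = 0.0106, and 0.0826 without implanted PBS replicate 2). Col8a1 had 85.3 and 120 CPM after PBS and 70.7 and 78.5 CPM after cGAMP and did not pass the test (adjusted p = 0.177).

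Among the laminin chains all 3 alpha and both beta chains tested fell in implanted tumours. Lamb2, the beta2 chain, had 87.3 and 84.3 CPM after PBS and 36.2 and 42.2 CPM after cGAMP. It fell by 53.8%, a difference of −1.12 ± 0.12 (adjusted p = 0.000196). Lama3 went from 28.1 and 32.6 CPM to 8.28 and 15.1 CPM, a difference of −1.36 ± 0.22 (adjusted p = 0.00203). Lama5, the alpha5 chain, went from 64.7 and 68.5 CPM to 42.3 and 50.8 CPM (−0.51 ± 0.11, adjusted p = 0.00857, and 0.0687 without implanted PBS replicate 2). Lama4 and Lamb1 fell by smaller amounts, −0.37 ± 0.10 and −0.32 ± 0.09, and both calls were lost without implanted PBS replicate 1 (adjusted p = 0.166 and 0.146) or without implanted cGAMP replicate 2 (0.0774 and 0.138), and that of Lamb1 also without implanted PBS replicate 2 (0.0728). Both were lost with median of ratios (0.0805 and 0.109) and with the stricter gate described below (0.05 and 0.193), and Lama4 came to −0.22 with UMIs summed per library (0.121). Lamc1, the gamma1 chain shared by most vessel laminins, had 234 and 210 CPM after PBS and 217 and 215 CPM after cGAMP, which overlapped.

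Of the linkers, 3 fell and 1 rose. Sparc had 5841 and 5794 CPM after PBS and 3509 and 3842 CPM after cGAMP, and fell by 36.9% (−0.66 ± 0.07, adjusted p = 0.000211). Hspg2 went from 442 and 420 CPM to 269 and 298 CPM (−0.60 ± 0.08, adjusted p = 0.00046). Nid2 went from 150 and 126 CPM to 107 and 88.7 CPM (−0.49 ± 0.11, adjusted p = 0.011, and 0.0907 without implanted PBS replicate 1 or 0.0536 without implanted cGAMP replicate 2). Nid1 instead had 315 and 292 CPM after PBS and 377 and 385 CPM after cGAMP, higher by 0.33 ± 0.08 (adjusted p = 0.0172). That call was lost without implanted PBS replicate 2 (0.129), without implanted cGAMP replicate 2 (0.0525) and with the 4 large classes weighted equally (0.208). Col23a1 rose by 1.03 ± 0.33 from 4.55 and 5.07 CPM to 12.3 and 9.5 CPM, and lost its call without any of the 4 implanted libraries (adjusted p = 0.0546 to 0.17). Beside it stands the larger lymphatic share given above, since Col23a1 was a gene of the lymphatic class. With the 4 large classes weighted equally Col23a1 did not reach the filter, so no fit was made there. The part of the lymphatic share in the rise was not tested.

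**Figure D3:**
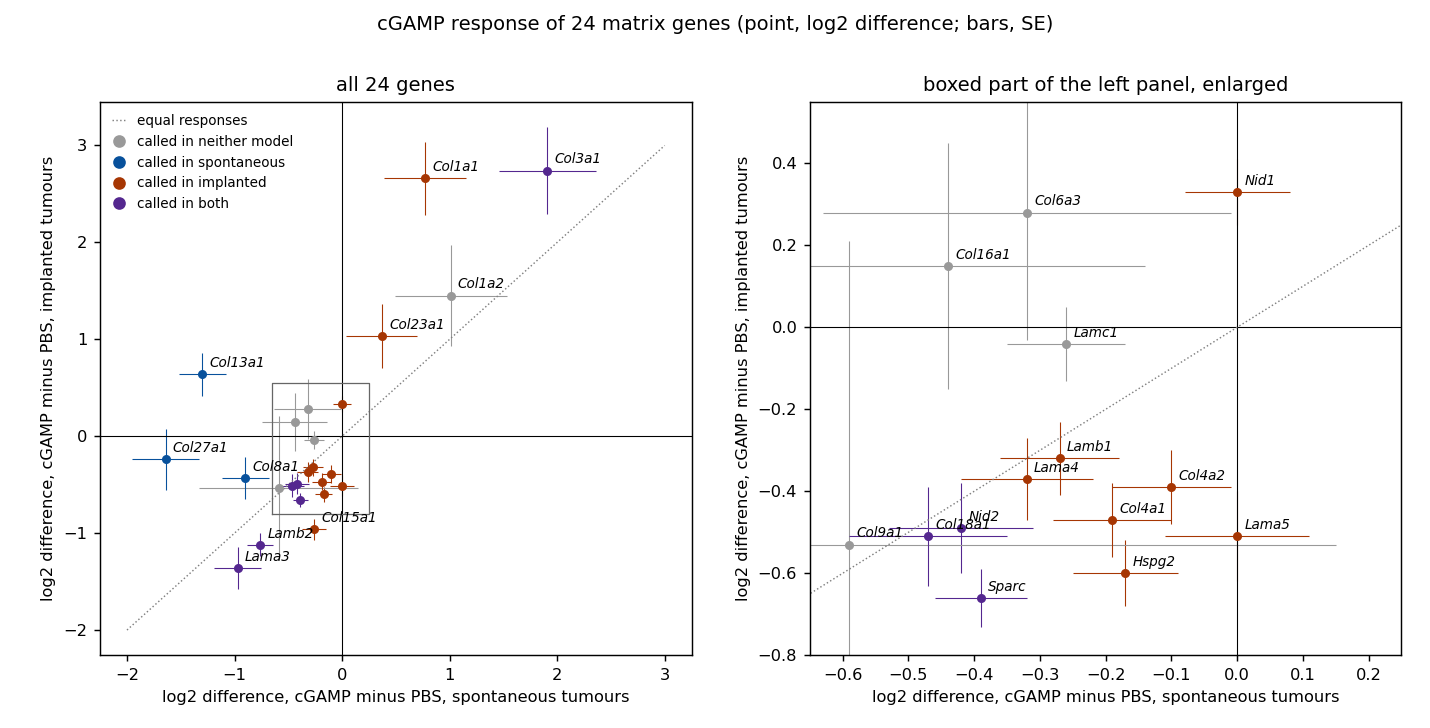
log2 difference between cGAMP and PBS in implanted tumours (vertical) against that in spontaneous tumours (horizontal) for 24 genes, with bars for the SE and colours for the adjusted p under 0.05 in each model. The right panel enlarges the box in the left one. Lamb2 and Lama3 lie at the lower left of the left panel, and Col13a1 alone lies at −1.30 and 0.64.

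In spontaneous tumours 8 of the 24 genes were lower after cGAMP and 1 was higher, against 8.17% and 4.9% of all genes. The higher gene was Col3a1, which passed the filter only through cGAMP libraries. Col27a1, among the lower genes, passed it only through spontaneous PBS libraries. The median difference was −0.29 and that of all genes −0.11, and scaling by median of ratios gave 5 lower and 1 higher. These counts rested on single libraries, since 4 genes were called without spontaneous PBS replicate 1 or without replicate 2, 2 without spontaneous cGAMP replicate 1, and 5 without replicate 2.

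Lamb2 was the member whose spontaneous call was kept in all 19 alternatives. It had 78.3 and 82.2 CPM after PBS and 42.1 and 52.4 CPM after cGAMP, and fell by 40.9% (−0.76 ± 0.12, adjusted p = 0.0032). Lama3 went from 34.2 and 30.6 CPM to 16.1 and 15.9 CPM (−0.97 ± 0.22, adjusted p = 0.0194), with an adjusted p of 0.0704 to 0.112 without any of the 4 spontaneous libraries. The groups did not overlap for these chains, nor for Col15a1, which was not called in spontaneous tumours (adjusted p = 0.161). How many of all genes lacked overlap was not counted.

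Sparc had 7183 and 7562 CPM after PBS and 5428 and 5789 CPM after cGAMP in spontaneous tumours, a difference of −0.39 ± 0.07 (adjusted p = 0.00716). Without spontaneous PBS replicate 2 or cGAMP replicate 1 the adjusted p was 0.0582 or 0.0738. Col18a1 went from 468 and 391 CPM to 282 and 336 CPM (−0.47 ± 0.12, adjusted p = 0.0256), and to adjusted p = 0.168 without spontaneous PBS replicate 1 and 0.175 without cGAMP replicate 1. Nid2 went from 148 and 152 CPM to 116 and 108 CPM (−0.42 ± 0.11, adjusted p = 0.0384), with an adjusted p of 0.109 to 0.192 without any of the 4 libraries. Col8a1 went from 69.8 and 41.9 CPM to 28.8 and 28.5 CPM (−0.90 ± 0.22, adjusted p = 0.0244). Its call was lost without PBS replicate 1 (−0.53, adjusted p = 0.138) or either cGAMP library (0.116 and 0.119), and with the classes weighted equally (−0.41, adjusted p = 0.165). Col27a1, a fibrillar chain at low level, had 5.44 and 7.31 CPM after PBS and 1.38 and 1.32 CPM after cGAMP and differed by −1.64 ± 0.31. It passed the filter only through the spontaneous PBS libraries, where it was high, so this value is a description. With the classes weighted equally it was −1.27 (adjusted p = 0.0739), and it was not tested without either of these libraries.

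The remaining basement membrane genes did not pass the test in spontaneous tumours. Col4a1 stood at 3050 and 3589 CPM after PBS and at 2925 and 2872 CPM after cGAMP (−0.19 ± 0.09, adjusted p = 0.178). Col4a2 (−0.10 ± 0.09), Col15a1 (−0.26 ± 0.11), Hspg2 (−0.17 ± 0.08), Lama4 (−0.32 ± 0.10), Lamb1 (−0.27 ± 0.09) and Lamc1 (−0.26 ± 0.09) also had negative values, with adjusted p = 0.0619 to 0.463. Lama5 (0.00 ± 0.11) and Nid1 (0.00 ± 0.08) stood near 0.

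Whether the models responded unequally was tested as the implanted minus the spontaneous response. Of 24 genes 1 was called, with a higher value in implanted tumours, against 0.3% of all genes higher and 0.59% lower. This gene was Col13a1. It had 48.9 and 78.9 CPM after PBS and 21.7 and 28.2 CPM after cGAMP in spontaneous tumours (−1.30 ± 0.22, adjusted p = 0.00413), and 46.1 and 53.9 CPM after PBS and 68.6 and 89.2 CPM after cGAMP in implanted tumours (0.64 ± 0.22, adjusted p = 0.0585). The difference of responses was 1.93 ± 0.31 (adjusted p = 0.0258). It kept its direction in all 19 alternatives, at 1.60 to 2.47, and its call in 13, with adjusted p = 0.0766 without spontaneous PBS replicate 2, 0.0924 and 0.134 without spontaneous cGAMP replicates 1 and 2, and 0.0873 without implanted PBS replicate 1. The spontaneous response of Col13a1 had an adjusted p of 0.0531 without spontaneous cGAMP replicate 1. Col15a1 came next, with a difference of −0.70 ± 0.16 (adjusted p = 0.0887), and for Col4a1 it was −0.28 ± 0.12 (adjusted p = 0.354) and for Lamb2 −0.36 ± 0.17 (adjusted p = 0.401). The call of a type IV chain in implanted tumours alone therefore does not show a difference between the models.

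Responses were also read inside the 4 classes with at least 20 cells in all 8 libraries. Cells were placed by markers, and some markers moved with treatment over the gated cells. In implanted tumours the tip marker Pgf had 18.1 and 12.7 CPM after PBS and 54.1 and 84.2 CPM after cGAMP. The venous marker Vwf had 309 and 289 CPM against 77.9 and 48.5 CPM. Cxcr4, another tip marker, had 66.7 and 53.3 CPM against 72.2 and 56.6 CPM. A class may therefore hold different cells after PBS and after cGAMP, and the part of this in the responses was not tested. Class shares of the gated cells over the 8 libraries ran from 8.22% to 23.2% for arterial, 4.29% to 13.6% for tip, 19.5% to 30.8% for venous and 12.7% to 30.9% for AQP7+ capillary cells, beside the lymphatic and proliferative shares given above. In implanted tumours 8 of 22 members were called in arterial cells (4.53% of all genes), 5 of 23 in tip cells (5.37%), 6 of 26 in venous cells (13.9%) and 13 of 26 in AQP7+ capillary cells (8.99%). In spontaneous tumours they were 2 of 22 (3.41%), 7 of 23 (5.22%), 1 of 26 (7.58%) and 4 of 26 (3.45%). Whether responses differed between classes was not tested.

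The type IV chains fell after cGAMP in the arterial and AQP7+ capillary cells of implanted tumours. In AQP7+ capillary cells Col4a1 stood at 4076 and 3812 CPM after PBS and 2405 and 2065 CPM after cGAMP (−0.82 ± 0.08, adjusted p = 6.5e-06). In arterial cells it stood at 2928 and 2191 CPM against 1357 and 1645 CPM (−0.76 ± 0.17, adjusted p = 0.0143). In venous cells it stood at 1846 and 1735 CPM after PBS and 1567 and 1973 CPM after cGAMP, which overlapped (−0.03 ± 0.10, adjusted p = 0.906). In tip cells the values were 4565 and 4468 CPM against 3632 and 3307 CPM in implanted tumours (−0.38 ± 0.14, adjusted p = 0.142) and 5020 and 5077 CPM against 3694 and 2932 CPM in spontaneous tumours (−0.62 ± 0.14, adjusted p = 0.0144).

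Sparc was lower after cGAMP in all 4 classes of implanted tumours, by −0.70 ± 0.11 in arterial, −0.73 ± 0.14 in tip, −0.31 ± 0.08 in venous and −0.62 ± 0.07 in AQP7+ capillary cells. In spontaneous tip cells it went from 9767 and 10762 CPM to 4682 and 5288 CPM (−1.04 ± 0.14, adjusted p = 0.000113). Lamb2 was lower in implanted arterial (−1.11 ± 0.21), venous (−1.51 ± 0.18) and AQP7+ capillary cells (−0.93 ± 0.28), and in spontaneous arterial (−0.91 ± 0.21), tip (−1.80 ± 0.48) and venous cells (−0.81 ± 0.18). Lama3 fell in the arterial class, where its level was highest, from 109 and 99.8 CPM to 35.4 and 43 CPM in implanted tumours (−1.39 ± 0.21) and from 117 and 98.7 CPM to 53.7 and 58.1 CPM in spontaneous tumours (−0.93 ± 0.21). Col8a1 in arterial cells had 397 and 427 CPM after PBS and 431 and 314 CPM after cGAMP in implanted tumours, and 309 and 198 CPM against 184 and 181 CPM in spontaneous ones, and passed the test in neither (adjusted p = 0.823 and 0.27). The spontaneous libraries held 16.9% and 15% arterial cells after PBS and 8.22% and 12.4% after cGAMP, and the part of this in the fall of Col8a1 over all cells was not tested.

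**Figure D4:**
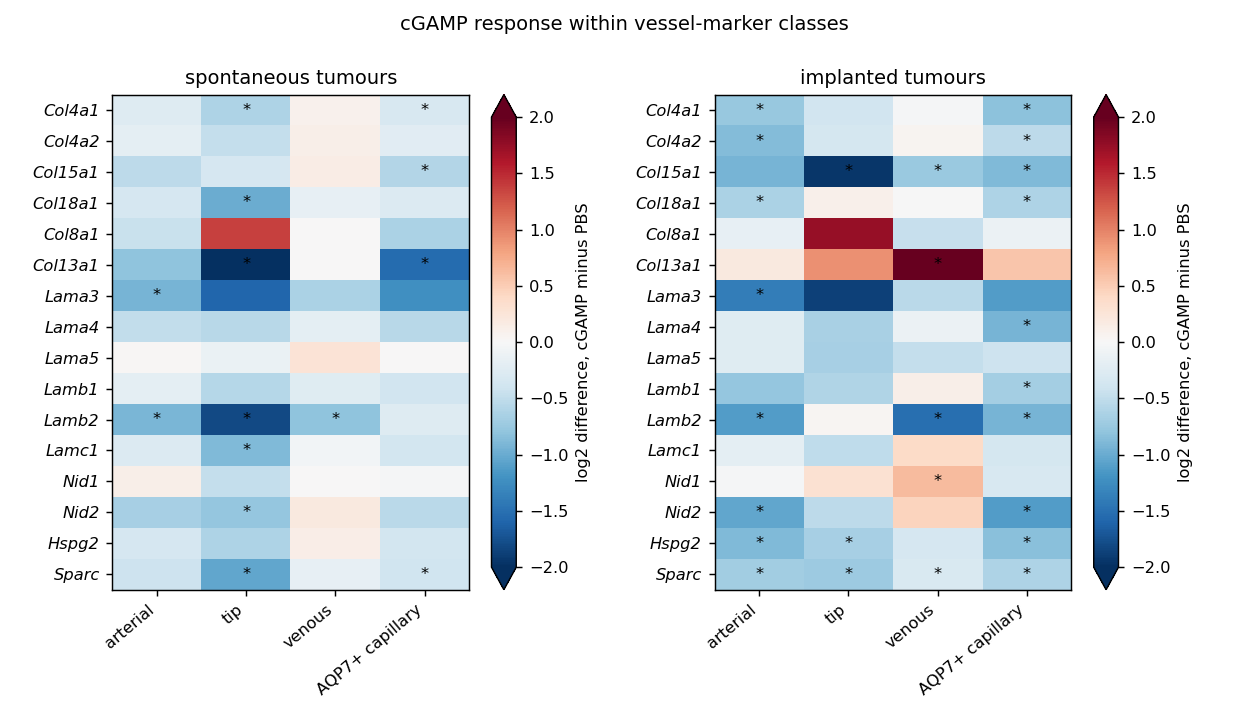
log2 difference between cGAMP and PBS inside 4 vessel-marker classes, for spontaneous (left) and implanted (right) tumours. Asterisks mark an adjusted p under 0.05, and colours are capped at 2. Sparc is marked in all 4 classes of implanted tumours, and Col4a1 in venous cells lies at −0.03.

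Of the 4 classes, the unequal response of Col13a1 was called in the tip and AQP7+ capillary classes. Fits inside classes were run in the main setting alone, without alternatives or left-out libraries. In tip cells Col13a1 had 186 and 148 CPM after PBS and 20.3 and 19.5 CPM after cGAMP in spontaneous tumours, and 35.2 and 59.9 CPM against 90.6 and 83.8 CPM in implanted tumours, a difference of responses of 3.91 ± 0.47 (adjusted p = 0.000792). The models thus already stood apart in tip cells after PBS, and the part of this in the difference was not tested. The spontaneous PBS libraries held 41 and 31 tip cells. In AQP7+ capillary cells it had 65.6 and 96.2 CPM against 24.9 and 28.5 CPM in spontaneous tumours, and 83.2 and 95 CPM against 135 and 128 CPM in implanted tumours (2.10 ± 0.30, adjusted p = 0.00155). The groups of each model did not overlap in either class, and the share of all genes without overlap was not counted. Of the other members, 2 had unequal responses in venous cells. Nid1 there had 253 and 256 CPM after PBS and 372 and 426 CPM after cGAMP in implanted tumours, and 347 and 354 CPM against 364 and 342 CPM in spontaneous tumours (0.64 ± 0.14, adjusted p = 0.0373). Col15a1 had 477 and 430 CPM against 263 and 279 CPM in implanted tumours, and 294 and 307 CPM against 331 and 334 CPM in spontaneous tumours (−0.89 ± 0.13, adjusted p = 0.00408).

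**Figure D5:**
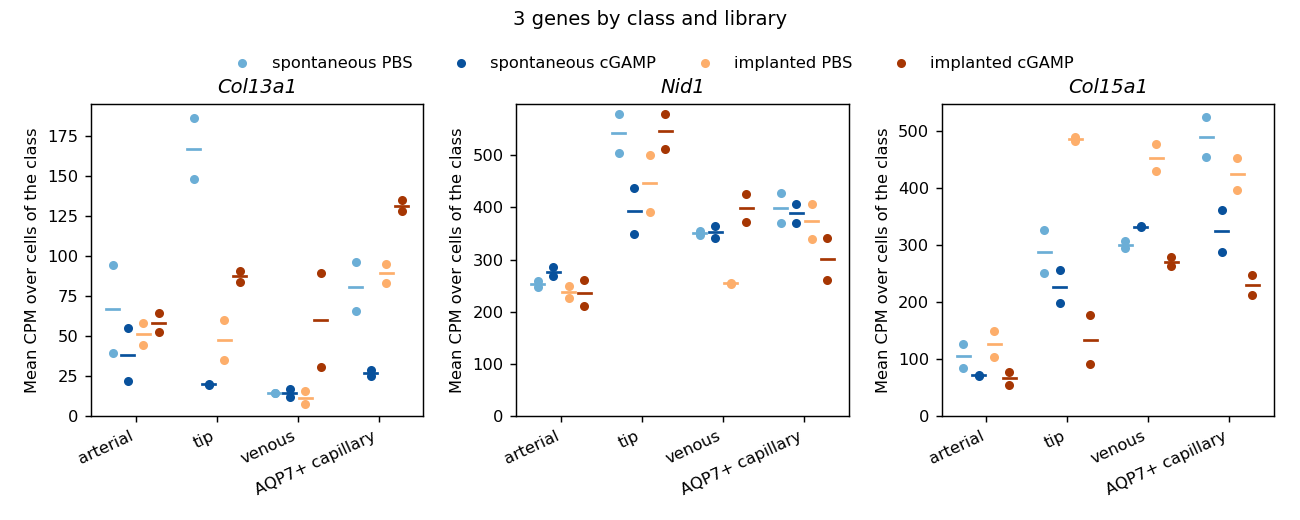
Level of Col13a1, Nid1 and Col15a1 in each library inside 4 vessel-marker classes, as mean CPM over the cells of the class, with points for libraries and lines for means of 2. In tip cells Col13a1 lies at 186 and 148 CPM in spontaneous PBS and at 20.3 and 19.5 CPM in spontaneous cGAMP, and in venous cells Nid1 rises from 253 and 256 CPM to 372 and 426 CPM in implanted tumours.

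The type I and III fibrillar chains were scarce in these cells and had higher mean values after cGAMP in both models. Col1a1 and Col3a1 passed the filter only through cGAMP libraries, where they were high, so their rise was favoured by the filter. Col1a2 reached 5 CPM in implanted PBS replicate 1 (5.44 CPM) and otherwise only in cGAMP libraries, so the filter favoured its rise too. The values of these chains below are a description. Col3a1 had 4.67 and 1.88 CPM after PBS and 35.9 and 18.9 CPM after cGAMP in implanted tumours (2.74 ± 0.45, adjusted p = 0.00196), and 3.29 and 0.91 CPM against 9.64 and 9.86 CPM in spontaneous tumours (1.91 ± 0.45, adjusted p = 0.0218). Col1a1 had 1.17 and 0.881 CPM against 13.7 and 10.1 CPM in implanted tumours (2.66 ± 0.38, adjusted p = 0.000966), and Col1a2 had 5.44 and 1.25 CPM against 14.5 and 5.96 CPM (1.45 ± 0.52, adjusted p = 0.0704). In spontaneous tumours Col1a1 (0.77 ± 0.38) and Col1a2 (1.01 ± 0.52) did not pass the test. These levels rest on few UMIs, since the gated cells of the implanted cGAMP libraries held 276 and 84 UMIs of Col3a1 and those of implanted PBS 65 and 30. The 5 cells with the most UMIs of the 3 chains held 14.3% and 10.1% of them in implanted cGAMP. Summed per library in place of averaged over cells, UMIs gave 1.81 for Col1a1 and 1.89 for Col3a1 in implanted tumours. In the cells with Pdgfrb, a marker of pericytes and fibroblasts, Col3a1 had 119 and 133 CPM in implanted PBS and 357 and 86.1 CPM in implanted cGAMP. Beside these values stand the summed fibroblast markers given above, of which 5 of 8 were above 1 CPM in both implanted cGAMP libraries and 3 of 8 in both implanted PBS libraries. Dcn, the fibroblast proteoglycan decorin, had 7.19 and 7.26 CPM in implanted PBS and 18.7 and 25.8 CPM in implanted cGAMP. In cells with none of Pdgfra, Lum, Rgs5, Notch3, Epcam and Ptprc the differences were 2.61 for Col1a1 and 2.53 for Col3a1 in implanted tumours, both called, and 1.37 for Col3a1 in spontaneous tumours (adjusted p = 0.118). The spontaneous call of Col3a1 was also lost without PBS replicate 2 (1.32, adjusted p = 0.137) and without either cGAMP library (0.109 and 0.11).

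The models were compared at rest and after cGAMP, each side sharing libraries with the responses above. After PBS 1 of 24 genes was higher in implanted tumours and 3 were lower, against 3.53% and 4.44% of all genes. Col8a1 had 69.8 and 41.9 CPM in spontaneous and 85.3 and 120 CPM in implanted tumours (0.89 ± 0.22, adjusted p = 0.0359). Lamb1 (−0.43 ± 0.09, adjusted p = 0.0202), Lamc1 (−0.37 ± 0.09, adjusted p = 0.0398) and Sparc (−0.34 ± 0.07, adjusted p = 0.0219) were lower. None of these 4 calls was kept when either spontaneous PBS replicate 2 or implanted PBS replicate 2 was left out, with adjusted p = 0.112 to 0.286. Without spontaneous PBS replicate 1 or either spontaneous cGAMP library 2 members were called, and 1 without implanted PBS replicate 1. In venous cells, where the responses of Col15a1 and Nid1 were unequal, these genes also differed between the models after PBS, by 0.59 ± 0.09 and −0.46 ± 0.10.

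After cGAMP 3 of 24 genes were higher in implanted tumours and 7 were lower, against 5.61% and 7.93% of all genes. Among the higher was Col1a1, which passed the filter only through cGAMP libraries. Hspg2 (−0.69 ± 0.08, adjusted p = 0.00105), Sparc (−0.61 ± 0.07, adjusted p = 0.0016) and Col13a1 (1.62 ± 0.22, adjusted p = 0.00225) kept their calls in all 19 alternatives. Hspg2 had 453 and 465 CPM in spontaneous cGAMP and 269 and 298 CPM in implanted cGAMP. Col4a1 (−0.51 ± 0.09), Col4a2 (−0.48 ± 0.09), Col15a1 (−0.61 ± 0.11), Lama5 (−0.58 ± 0.11) and Lamb1 (−0.48 ± 0.09) were also lower, and Col8a1 (1.35 ± 0.22) and Col1a1 (1.52 ± 0.38) higher. Without spontaneous cGAMP replicate 2, 4 of the 10 calls were left, and the adjusted p was 0.0612 for Col4a1, 0.0631 for Col4a2, 0.092 for Col15a1, 0.0869 for Lamb1, 0.0549 for Col8a1 and 0.188 for Col1a1. Without replicate 1 it was 0.0731 for Lama5 and 0.0548 for Col4a2, and without implanted cGAMP replicate 1 it was 0.12 for Col1a1.

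Other genes of collagen and basement membrane biology were read from 3 lists. Of 21 genes that modify or export collagens, 16 were tested, and 2 were higher and 3 lower in the implanted response and 1 lower in the spontaneous one, with 8.4% and 16.4% of all genes higher and lower in the implanted and 4.9% and 8.17% in the spontaneous response. Plod3, a lysyl hydroxylase that also glycosylates type IV collagen, rose from a mean of 71.1 to 100 CPM in implanted tumours (0.49 ± 0.09, adjusted p = 0.00419), and Bmp1, a procollagen protease, fell from 61.2 to 38.2 CPM (−0.67 ± 0.12, adjusted p = 0.00274). In tip cells 8 of 18 genes of this list were higher and 1 lower, against 9.95% and 20% of all genes, among them the collagen chaperone Serpinh1 (0.81 ± 0.07) and the hydroxylases Plod2 (1.47 ± 0.28) and P4ha1 (0.78 ± 0.13). These values keep the lymphatic class in the contrast, where Serpinh1 was lower (−1.04 ± 0.09), and are not given without it. Serpinh1 was also higher in AQP7+ capillary (0.37 ± 0.07) and proliferative cells (0.59 ± 0.12).

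Of 13 matrix receptors 9 were tested, with 1 higher and 2 lower in each response, beside the same shares of all genes. Itga3, the alpha3 integrin chain that binds laminins, rose from a mean of 22.8 to 67.7 CPM in implanted tumours (1.53 ± 0.11, adjusted p = 1.4e-05) and from 29.2 to 41.8 CPM in spontaneous tumours (0.50 ± 0.11, adjusted p = 0.0138), and these responses differed by 1.03 ± 0.15 (adjusted p = 0.0191). Bcam, a receptor of the laminin alpha5 chain, fell in both, by −0.83 ± 0.12 and −0.59 ± 0.12.

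Of 12 proteases and inhibitors 11 were tested, with 4 higher and 4 lower in the implanted response and 1 higher and 3 lower in the spontaneous one, beside the same shares of all genes. The metalloprotease inhibitors Timp1 (from a mean of 41.7 to 109 CPM, 1.36 ± 0.11) and Timp3 (534 to 987 CPM, 0.88 ± 0.08) rose in implanted tumours, and their responses exceeded those in spontaneous tumours by 0.96 ± 0.16 and 0.70 ± 0.11 (adjusted p = 0.0317 and 0.0252). For Timp4, at low levels, the responses differed by 2.76 ± 0.51 (adjusted p = 0.0415). After PBS the models already differed for Timp1 (0.51 ± 0.11), Timp3 (−0.35 ± 0.08) and Timp4 (−2.38 ± 0.36), all called. The part of this in the unequal responses was not tested. For genes of the 3 lists no alternatives are given. Timp2, another of these inhibitors, fell from a mean of 201 to 133 CPM in implanted tumours (−0.61 ± 0.12, adjusted p = 0.00543) and from 163 to 105 CPM in spontaneous tumours (−0.63 ± 0.12, adjusted p = 0.00889). Htra1, a secreted serine protease, fell in both models, by −1.59 ± 0.25 and −1.54 ± 0.25.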

How the data were processed

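Gene expression was measured by 10x 3′ single cell RNA sequencing in 8 libraries of sorted CD31+ tumour ECs. The authors mapped reads to mm10 with Cell Ranger (3.0.0 in the submitters' processing notes), removed cells with few genes or a high mitochondrial share, and deposited natural log values, ln(1 + UMIs × 10000 / total), made with Seurat (3.1.1 in the same notes). Multiplied back, 100% of values were whole UMIs within 0.01. The methods also remove clusters without Pecam1, but the deposited tables still held 99 cells with Pdgfrb only and 946 with neither gene, and their cell numbers differ from those the study lists, so which filters the deposited cells had passed was not settled. No doublet caller was run.

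CPM were averaged over gated cells per library (6937638 to 16165279 UMIs), which gives deep and shallow cells equal weight, and log2(mean CPM + 1) was tested in limma 3.58.1 (R 4.3.3, eBayes with trend) for genes that reached 5 CPM in 2 or more libraries. Fold changes on this scale understate those of low genes. P values were adjusted by Benjamini-Hochberg over all genes tested and called under 0.05. Class columns needed 20 cells, and a cell needed at least 2 markers of a class and more than of any other. Scripts were tested on simulated data. Promoters are RefSeq (GRCm38.p6) and gene positions GENCODE vM21.

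Members, lists and tests were chosen with earlier results of these data known. Fixed for naming were 17 genes, and of the called members with a mean of at least 10 CPM the 5 with the largest difference in each direction. Not each of them is named in every comparison. Others are given by counts, and where named were chosen after their values were seen. Alternatives were the pseudocount, the filter, the scaling, summed UMIs, the replicate number as a block, stricter gates, the class markers and leaving out each library. Equal class weights and the contrast without the lymphatic class were added after the data were seen. For 1 member the values are not reported here.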

Additional observations from a re-analysis of the deposited data

Results flagged for a closer look

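The cGAMP response of Col13a1 differed between the models over all gated cells, by 1.93 on the log2 scale (implanted minus spontaneous, limma, adjusted p = 0.0258), and inside the tip class by 3.91 (adjusted p = 0.000792) and the AQP7+ capillary class by 2.10 (adjusted p = 0.00155). Each is a test of the difference itself, and those inside classes were run without alternatives. In tip cells the PBS libraries of the models also stood apart. In the venous class the responses differed by 0.64 for Nid1 (adjusted p = 0.0373) and by −0.89 for Col15a1 (adjusted p = 0.00408). With 2 libraries in a group, no check for a library far from the rest of its group was run.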

How the results depend on the processing

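Of 98 called values of named genes, 57 kept their call in every alternative. Called values that changed sign were Sparc (−0.21) and Col23a1 (0.16) in the arterial class when the lymphatic class was left out of the contrast. That setting also moved the called members to 13 in the venous class and 8 in the AQP7+ capillary class. With no filter on low values 4 members were called in the spontaneous response, 0 in the difference of responses and 0 between the models after PBS, where limma gave 12 and 13 of 57 members an unadjusted p under 0.05. The difference of responses gave 3 calls with summed UMIs, 0 with the stricter gate (6 at an unadjusted p under 0.05), 2 at 2000 UMIs per cell and 2 with classes weighted equally. The models after PBS gave 2 calls with median of ratios and 1 with the stricter gate. The proliferative class gave 5 calls with a pseudocount of 5 CPM and 7 in PBS libraries. For these, the cause was not tested.

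Leaving out 1 library at a time gave 2 to 11 called members in the spontaneous response, 11 to 17 in the implanted response, 0 to 2 in the difference of responses and 0 to 6 between the models after PBS (where 0, 6 to 10 and 4 to 5 at an unadjusted p under 0.05), and 4 to 13 between the models after cGAMP and 1 to 5 in the proliferative class.

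Replicate 1 libraries of different groups did not deviate together (r = −0.167 to 0.135). The numbers were therefore not used as pairs in the main fit, though with 2 libraries in a group this check cannot exclude a pairing. With the replicate block 9, 17, 1, 3 and 11 members were called in the spontaneous response, the implanted response, their difference, and the models after PBS and after cGAMP. Shallow implanted cGAMP replicate 1 limits what low genes can show.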
